A study of Mus musculus with 8 samples.

Results

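Prox1, Dsp, C1ql2, Lct, Tdo2 and Trpc6 are 6 genes used as markers of the granule neurons of the dentate gyrus, and they were chosen by name. Of these, 5 genes had at least 1 probe set that carried them as its single gene symbol, which gave 8 of the 22626 probe sets tested. C1ql2, a secreted C1q-like protein of mossy fibre synapses, is no probe set's single symbol and was not analysed here. BSKO brains, which lack SIRT1 through a brain-specific knockout, were compared with brains of wild-type littermates (WT), with 4 biological replicates of each genotype. All mice were C57/B6 males aged 3 months, and total RNA of each brain was measured on 1 Affymetrix Mouse430A_2 array, a single-channel platform. The labels name no Cre driver, no deleted exon and no other allele or treatment for either genotype.

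The dentate gyrus is the entry station of the hippocampus, and its granule neurons send mossy fibres to the pyramidal neurons of field CA3. It is also a site where neurons are born in the adult mouse. Prox1, a homeobox transcription factor, gives these neurons their identity and maintains it. Dsp and Tdo2 transcripts are used in mice to mark granule neurons that have matured, while Lct and Trpc6 transcripts are known for their enrichment in the granule cell layer. SIRT1 is an NAD-dependent protein deacetylase.

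The deposited log2 values were centred on 0 within each probe set and show how arrays differ, not how strongly a gene was expressed. For this reason the presence of each marker could not be checked, and no level was compared between genes. Whole brain holds few granule neurons among many other cells, and fewer granule neurons cannot be told apart from less marker RNA in each. On BSKO 2 the values of all tested probe sets had an SD of 0.831, against 0.15 to 0.314 on the other 7 arrays. In centred values, its 5' probe set for beta-actin minus the 3' one was -2.44, against -0.104 to 0.489 on the others. This is a shift against the other arrays and not the 5' level relative to the 3' level. Results are therefore given with and without BSKO 2. The values of 4 arrays a genotype limit the precision, and p-values measure the spread between these animals.

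To show sequence context for some of the markers, the 250 bases before an annotated start of Prox1, Tdo2 and Lct are given. They are as RefSeq has them in build GRCm38.p6, 5' to 3' on the strand of the gene. Prox1 is at chr1:190170828-190171077 on the minus strand, Tdo2 at chr3:81975729-81975978 on the minus strand and Lct at chr1:128328319-128328568 on the minus strand. Capitals mark CAGATG, an E-box form bound by NeuroD factors, and TATAAA, the TATA box, each on either strand.
Prox1: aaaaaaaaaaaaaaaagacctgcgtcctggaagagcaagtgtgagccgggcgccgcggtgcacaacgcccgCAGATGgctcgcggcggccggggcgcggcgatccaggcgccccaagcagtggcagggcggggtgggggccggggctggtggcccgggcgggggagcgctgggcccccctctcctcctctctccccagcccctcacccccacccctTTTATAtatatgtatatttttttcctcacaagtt
Tdo2: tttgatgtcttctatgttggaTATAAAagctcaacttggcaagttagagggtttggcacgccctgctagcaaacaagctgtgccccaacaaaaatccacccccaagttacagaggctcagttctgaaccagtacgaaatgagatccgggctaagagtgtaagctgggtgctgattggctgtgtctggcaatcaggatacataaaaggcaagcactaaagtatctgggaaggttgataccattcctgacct
Lct: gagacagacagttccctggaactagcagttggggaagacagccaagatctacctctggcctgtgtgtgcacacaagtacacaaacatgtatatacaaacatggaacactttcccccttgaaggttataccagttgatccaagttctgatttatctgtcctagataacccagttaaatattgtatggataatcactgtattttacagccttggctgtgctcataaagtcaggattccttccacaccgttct
The Prox1 window is GC-rich (64.8%) and holds 1 CAGATG, whose first base is 179 bases before the start, and 1 TATAAA on the reverse strand, 34 bases before it. A second annotated Prox1 start has its window at chr1:190169516-190169765 (56% GC), and neither motif is in it. The Tdo2 window (46.4% GC) holds 1 TATAAA, 229 bases before the start, and the Lct window (42.8% GC) holds neither motif. Among 32851 promoter windows of this length, 14.4% hold CAGATG and 12.4% hold TATAAA on either strand. The FoxO motif GTAAACA, found in 3.17% of all windows, is in none of the 3. The windows of Dsp, C1ql2 and Trpc6 were searched as well, hold none of these motifs and are not printed. A match is a description of the letters and not of a bound site.

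All 5 measured markers averaged lower in BSKO brain than in WT brain, yet no marker passed the test over all probe sets with 8 arrays. The differences, BSKO minus WT on the log2 scale, were negative for 7 of the 8 probe sets, from -1.57 for a Dsp probe set to -0.39 for a Tdo2 one, and 0.13 for the remaining Dsp probe set. Over all tested probe sets 46.5% were lower in BSKO, with a median difference of 0.022, while the median over the 8 marker probe sets was -0.69. With limma and Benjamini-Hochberg adjustment at 0.05, 0 of the 8 were called, and 0.0309% of all probe sets were. At an unadjusted p under 0.05 there were 4 of the 8, all lower in BSKO, against 5.22% of all probe sets lower at that level. The genes were chosen with earlier results of these arrays known, so these counts are a description.

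**Figure D1:**
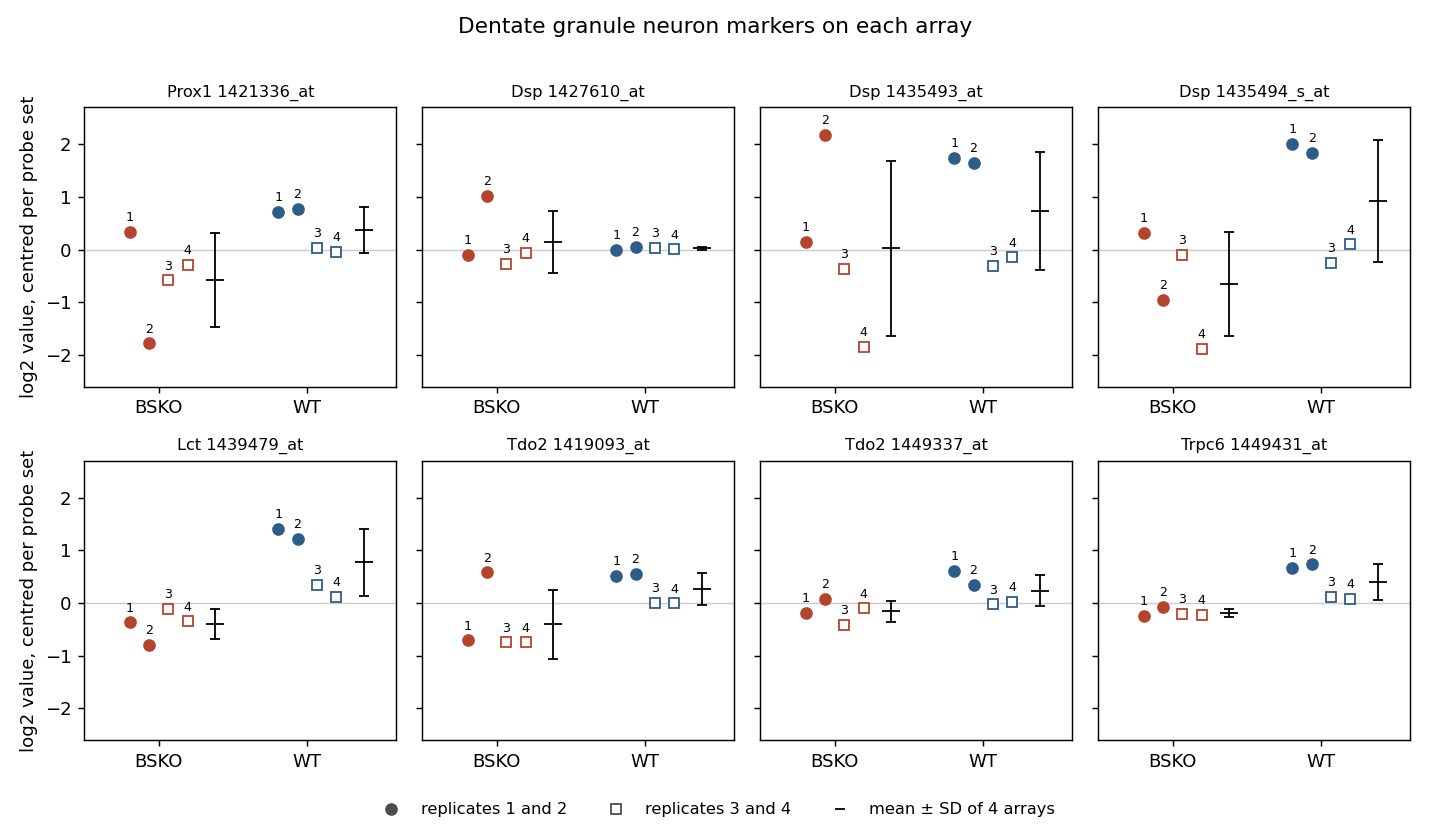
Centred log2 value (vertical axis) of each of the 8 marker probe sets on the 4 BSKO and 4 WT arrays. Numbers give the replicate, filled circles replicates 1 and 2, open squares replicates 3 and 4, and bars the mean ± SD of 4 arrays. WT 1 and WT 2 lie above WT 3 and WT 4 for 7 of the 8 probe sets.

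Prox1, measured by probe set 1421336_at, was 0.34, -1.78, -0.59 and -0.29 on BSKO 1 to 4, against 0.72, 0.77, 0.04 and -0.04 on WT 1 to 4. BSKO 2 was the lowest array by more than 1 log2 unit, and BSKO 1 lay above WT 3 and WT 4, so the genotypes overlapped. The means were -0.58 ± 0.89 in BSKO and 0.37 ± 0.43 in WT (SD, n = 4 each), a difference of -0.95 (SE 0.42) that did not pass (limma adjusted p = 0.466). Without BSKO 2 the difference was -0.55 (SE 0.28, limma adjusted p = 0.312).

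Tdo2 encodes tryptophan 2,3-dioxygenase, which opens the indole ring of tryptophan at the start of the kynurenine pathway. Its probe set 1419093_at was -0.71, 0.58, -0.75 and -0.75 on BSKO 1 to 4, against 0.52, 0.55, 0.01 and -0.01 on WT 1 to 4. BSKO 1, 3 and 4 agreed to within 0.04 and lay below every WT array, whereas BSKO 2 was the highest of all 8. Over 8 arrays the difference was -0.67 (SE 0.32, limma adjusted p = 0.483). Without BSKO 2 the mean was -0.73 ± 0.02 in BSKO (SD, n = 3) and 0.27 ± 0.31 in WT (SD, n = 4), and Tdo2 fell by 1.00 on the log2 scale (SE 0.16), or 2.00-fold (limma adjusted p = 0.0296).

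That was the 1 call among the 8 probe sets in the fit without BSKO 2, in which 1.63% of all probe sets were called and 1.14% were called as lower. The second Tdo2 probe set, 1449337_at, is listed under the same target accession. It was -0.18, 0.07, -0.41 and -0.10 on BSKO 1 to 4, against 0.61, 0.34, -0.03 and 0.03 on WT 1 to 4. Here BSKO 2 lay above WT 3 and WT 4, and the genotypes did not overlap once it was left out. Its difference was -0.39 (SE 0.17, limma adjusted p = 0.455) with 8 arrays and -0.47 (SE 0.16, limma adjusted p = 0.171) without BSKO 2. As the mean of both probe sets, Tdo2 differed by -0.74 without BSKO 2 and narrowly missed the threshold over 12393 genes (limma adjusted p = 0.0547).

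Lct encodes lactase, the intestinal enzyme that splits milk sugar. Its probe set 1439479_at was -0.37, -0.80, -0.11 and -0.35 on BSKO 1 to 4, against 1.41, 1.22, 0.34 and 0.11 on WT 1 to 4. Every BSKO array lay below every WT array, with BSKO 3 and WT 4 the closest pair. The difference was -1.18 (SE 0.30), or 2.26-fold, and was the largest of the probe sets that separated the genotypes (limma adjusted p = 0.256). Without BSKO 2 it was -1.05 (SE 0.31, limma adjusted p = 0.13).

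Trpc6 encodes a cation channel opened by diacylglycerol downstream of receptors. On probe set 1449431_at the values were -0.25, -0.08, -0.20 and -0.23 on BSKO 1 to 4, against 0.66, 0.73, 0.12 and 0.08 on WT 1 to 4. The genotypes again did not overlap, and the BSKO arrays were tighter (SD 0.076) than the WT arrays (SD 0.348). The difference of -0.59 (SE 0.17), or 1.5-fold, did not pass with 8 arrays (limma adjusted p = 0.306) or without BSKO 2 (-0.62, SE 0.17, limma adjusted p = 0.115). Lct and Trpc6 were the 2 of 8 marker probe sets whose genotypes did not overlap with lower values in BSKO, as 6.66% of all probe sets did. Without BSKO 2 there were 5 of 8, against 10.3% of all.

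Dsp encodes desmoplakin, which anchors intermediate filaments to desmosomes, and its 3 probe sets disagreed. On 1435494_s_at the values were 0.32, -0.95, -0.10 and -1.89 on BSKO 1 to 4, against 2.01, 1.83, -0.25 and 0.10 on WT 1 to 4. This gave the widest difference of the 8, -1.57 (SE 0.64), with overlapping genotypes (limma adjusted p = 0.439). It was the only marker probe set dropped when those that can cross-hybridise were left out. On 1435493_at, listed under the same accession, the values were 0.15, 2.17, -0.36 and -1.85 in BSKO, against 1.75, 1.65, -0.32 and -0.15 in WT. The difference was -0.71 (SE 0.84, limma adjusted p = 0.715). That difference was -0.08 without BSKO 4 (limma adjusted p = 0.962) and -0.37 without WT 1 (limma adjusted p = 0.893).

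These Dsp probe sets differed by 0.0336 to 0.264 on 7 of the arrays and by 3.12 on BSKO 2, where 1435493_at was the highest of all 8 arrays. Without BSKO 2 their differences were -1.47 and -1.42, with SEs of 0.71 and 0.66 and limma adjusted p values of 0.294 and 0.280. The third, 1427610_at, was -0.10, 1.02, -0.27 and -0.06 on BSKO 1 to 4, against 0.00, 0.06, 0.03 and 0.00 on WT 1 to 4. Its WT arrays stayed within 0.06 of each other, its BSKO 2 value stood far above the rest, and its difference turned from 0.13 (limma adjusted p = 0.824) to -0.16 (limma adjusted p = 0.254) without that array. As the mean of 3 probe sets, Dsp differed by -0.72 (SE 0.48, limma adjusted p = 0.530).

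The replicate numbers 1 and 2 stood apart from 3 and 4 among the WT arrays. WT 1 and WT 2 were both above WT 3 and WT 4 for 7 of the 8 marker probe sets, and for 26.8% of all probe sets. For Lct the mean of WT 1 and WT 2 exceeded that of WT 3 and WT 4 by 1.09, close to the size of its genotype difference, and for Trpc6 by 0.60, slightly above it. For Dsp the excess was 2.00 on 1435494_s_at and 1.93 on 1435493_at. The labels do not say what these numbers share, and this difference among WT arrays was not tested.

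Within replicates 3 and 4 all 8 marker probe sets were lower in BSKO, from -0.91 for Dsp 1435494_s_at to -0.18 for Dsp 1427610_at, where 49.4% of all probe sets were lower. Tdo2 1419093_at differed by -0.75 within these 2 arrays a genotype, Lct by -0.46, Prox1 by -0.44 and Trpc6 by -0.31. Within replicates 1 and 2, which include BSKO 2, 7 of the 8 were lower, where 46.6% of all probe sets were. There the differences were -2.23 for Dsp 1435494_s_at, -1.90 for Lct, -1.46 for Prox1, -0.86 for Trpc6 and -0.60 for Tdo2 1419093_at, and Dsp 1427610_at was at 0.43. With BSKO 2 left out, BSKO 1 alone lay below the mean of WT 1 and WT 2 for all 8 probe sets. How many of all probe sets do so was not counted. WT 1 and WT 2 were themselves above WT 3 and WT 4 for 7 of these 8. With BSKO 1 alone, Prox1 differed by -0.40, slightly less than within replicates 3 and 4, Dsp 1435494_s_at by -1.60 and Dsp 1427610_at by -0.13. Lct was then at -1.68, Tdo2 1419093_at at -1.25 and Trpc6 at -0.95. The size was larger within replicates 1 and 2 than within 3 and 4 for 6 of the 8 probe sets both with and without BSKO 2, but only 4 of them were the same. This was not counted over all probe sets either.

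**Figure D2:**
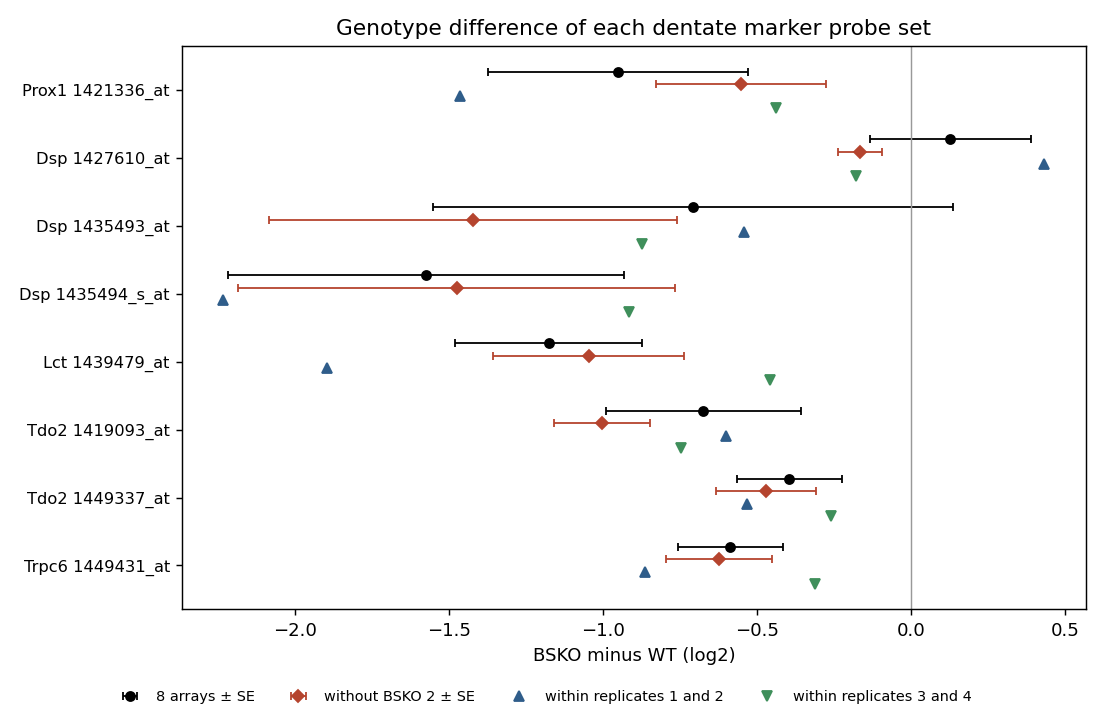
BSKO minus WT difference on the log2 scale (horizontal axis) of each marker probe set in 4 ways: all 8 arrays and without BSKO 2 (both ± SE of the limma fit), and within replicates 1 and 2 or 3 and 4 (means of 2 arrays a genotype, no error). All points within replicates 3 and 4 lie below 0, and the Lct points within the pairs of replicates lie at -1.90 and -0.46.

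The difference between these pairs of replicates was tested as an interaction over all probe sets, taken as the genotype difference in replicates 3 and 4 minus that in 1 and 2. None of the 8 passed (lowest limma adjusted p = 0.510), while 0.0177% of all probe sets did. Lct had the largest interaction among the markers (1.44, SE 0.28, unadjusted p = 0.00167) and Trpc6 differed by 0.55 (SE 0.19, unadjusted p = 0.0238). At an unadjusted p under 0.05 these 2 of 8 stood beside 4.84% of all probe sets. Without BSKO 2 the interaction was 1.23 for Lct (limma adjusted p = 0.114) and 0.64 for Trpc6 (limma adjusted p = 0.184). Without BSKO 1, replicates 1 and 2 rest on BSKO 2 alone, and 5 markers' probe sets passed, among them Lct (1.65, limma adjusted p = 0.00185) and Trpc6 (0.47, limma adjusted p = 0.0268). In that fit 10680 of 22626 probe sets passed.

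A fit chosen after seeing the data left out BSKO 2 and added a term for replicates 1 and 2 against 3 and 4. In it 2 of the 8 passed, where 3.29% of all probe sets were called and 1.96% were called as lower. Tdo2 1419093_at fell by 0.95 (SE 0.11, limma adjusted p = 0.0109) and Prox1 fell by 0.43 (SE 0.09, limma adjusted p = 0.0496). Trpc6 (-0.57, limma adjusted p = 0.0704) and Lct (-0.95, limma adjusted p = 0.0897) did not pass. With 8 arrays and the same term none of the 8 passed, where 0.371% of all probe sets did, and the lowest limma adjusted p was that of Trpc6 (0.171).

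Other genes known for enrichment in dentate granule neurons were lower in BSKO for 17 of 25 probe sets, beside 46.5% of all tested. The 25 stand for 14 measured genes of 22 listed, with a median difference of -0.45. None passed with 8 arrays, and with the replicate term added 2 fell, Bdnf 1422169_a_at by 0.95 (limma adjusted p = 0.0225) and Neurod1 1426412_at by 1.55 (limma adjusted p = 0.0466). Without BSKO 2, 7 probe sets of 5 genes fell and none rose, where 1.14% of all probe sets were called as lower and 0.495% as higher, and the median over the list was -0.29. Neurod1, a transcription factor needed for granule neurons to form and also used by cerebellar granule neurons, fell by 1.37 and 1.40 on its 2 probe sets (limma adjusted p = 0.0159 and 0.0235). C1ql3, the closest measured relative of C1ql2, fell by 0.98 on 1425175_at and by 0.57 on 1451620_at (limma adjusted p = 0.0189 and 0.0170). Its remaining probe set, 1425176_at, differed by -0.63 (limma adjusted p = 0.0871).

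Bdnf, a neurotrophin stored in mossy fibres, fell by 0.87 on 1422169_a_at without BSKO 2 (limma adjusted p = 0.0157). Its other probe set, 1422168_a_at, differed by -0.59 and did not pass in that fit (limma adjusted p = 0.0738). Gpc4, a heparan sulphate proteoglycan, fell by 0.87 (limma adjusted p = 0.0409), and Stxbp6, a syntaxin-binding protein, fell by 0.49 (limma adjusted p = 0.0386). Il16 differed by -0.45 and -0.16 on its 2 probe sets (limma adjusted p = 0.227 and 0.750). Calb1, the calcium buffer calbindin of mature granule neurons, was named after its values were seen and differed by -0.17 and -0.30 (limma adjusted p = 0.275 and 0.213). The 8 probe sets of the list that were higher in BSKO with 8 arrays were of Bcl11b, Neurod2, Npnt, Rfx3 and Sema5a. Bcl11b was the highest of them, at 0.47 with 8 arrays and 0.96 without BSKO 2 (limma adjusted p = 0.695 and 0.188). Neurod1 and Bdnf were known from earlier results of these arrays when the list was written.

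**Figure D3:**
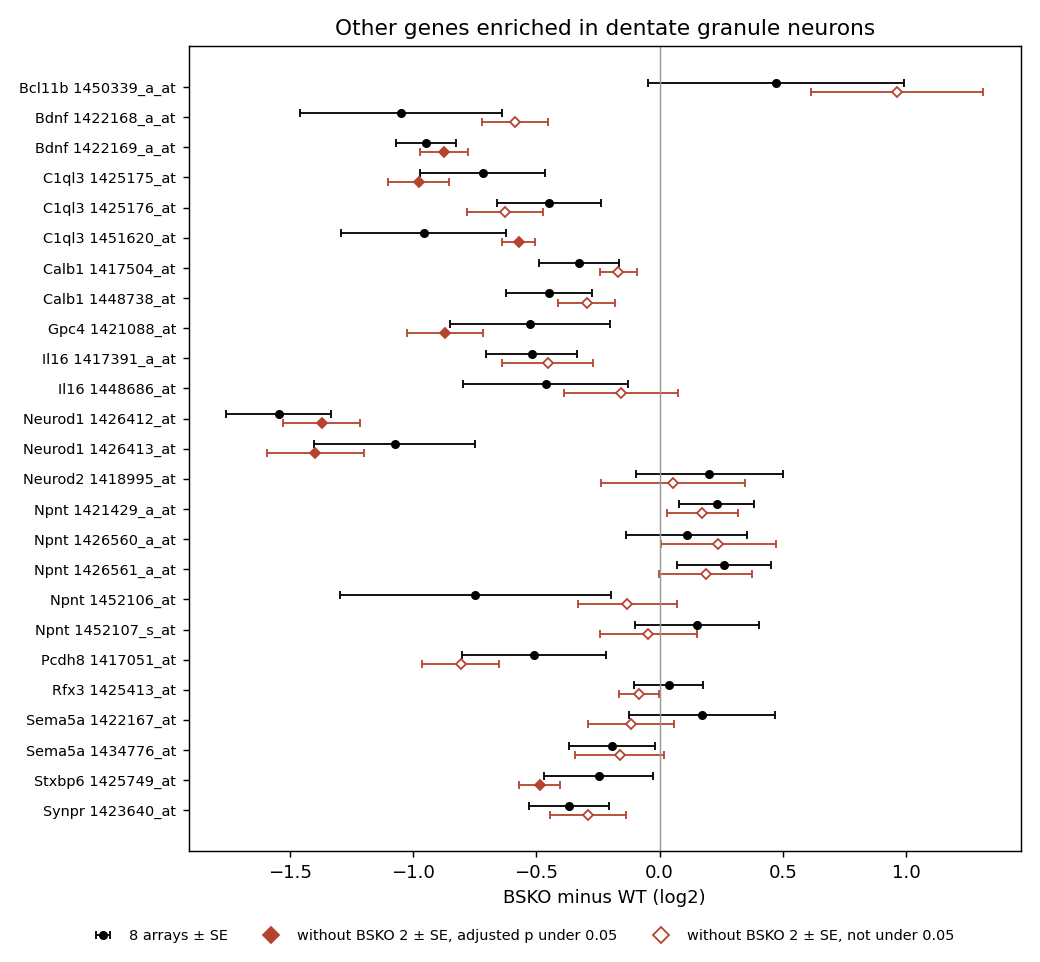
BSKO minus WT difference on the log2 scale (horizontal axis) ± SE for the 25 probe sets of other granule neuron genes, with 8 arrays (circles) and without BSKO 2 (diamonds, filled where the limma adjusted p is under 0.05). The 7 filled diamonds, of Bdnf, C1ql3, Gpc4, Neurod1 and Stxbp6, all lie below 0.

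For genes of newborn dentate neurons, 15 of 25 probe sets of 9 genes were higher in BSKO (60%), close to the 53.5% of all tested probe sets. None passed with 8 arrays or without BSKO 2, and the medians were 0.052 and 0.16. Eomes, a transcription factor of neuronal progenitors, differed by 1.37 on 1435172_at (SE 0.51, limma adjusted p = 0.414), and Igfbpl1 by 1.23 on 1423377_at (SE 0.47, limma adjusted p = 0.421). Both of these probe sets were carried by BSKO 1 and BSKO 2, at 2.25 and 2.33 for Eomes and 1.80 and 2.26 for Igfbpl1. On them BSKO 3 and BSKO 4 were at 0.50 or less. The other Igfbpl1 probe set, 1450960_at, was at 1.86, -0.03, 1.30 and -0.07 on BSKO 1 to 4. Its difference was 0.83 (SE 0.43, limma adjusted p = 0.511). Sox4 differed by 0.57 on 1419157_at (SE 0.13, limma adjusted p = 0.185). Among the 4 fits this probe set passed only in that with the replicate term and without BSKO 2 (0.47, limma adjusted p = 0.0414). With 8 arrays the other Sox4 probe sets ran from -0.33 on 1449370_at to 0.88 on 1419155_a_at (limma adjusted p = 0.826 and 0.397). Sox11, a factor of immature neurons, differed by -0.45 (SE 0.25, limma adjusted p = 0.526).

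Markers of the CA pyramidal neurons, the neighbouring hippocampal cells, had a median difference of 0.060 over 18 probe sets of 12 genes. Of the 18, 12 were higher in BSKO, where 53.5% of all probe sets were, and none was called with or without BSKO 2. Necab2, a calcium-binding protein of field CA2, differed by 0.52 (SE 0.13, limma adjusted p = 0.239) and Pou3f1, a POU-domain factor, by 0.59 on 1460038_at (SE 0.15, limma adjusted p = 0.242). Iyd differed by -0.67 (SE 0.40, limma adjusted p = 0.544). Plagl1 differed by -0.24 on 1426208_x_at (SE 0.21, limma adjusted p = 0.623) and by 0.06 on 1450533_a_at (SE 0.50, limma adjusted p = 0.958).

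The relatives and partners of the markers gave few calls. Among 9 probe sets of 5 C1q-like, cerebellin and receptor genes 8 were lower, where 46.5% of all probe sets were. Most of the 9 belong to C1ql3 and Cbln1, and those of C1ql3 given above were the only calls without BSKO 2. C1ql1 differed by -0.29 (limma adjusted p = 0.560) with 8 arrays. Among 7 probe sets of the other TRPC channels 5 were lower and none was called, with Trpc5 at -0.31 (limma adjusted p = 0.446) and Trpc2 at 0.32 (limma adjusted p = 0.503). The 10 probe sets of tryptophan breakdown beyond Tdo2 had a median of 0.12 and no call with or without BSKO 2. Ido1, whose enzyme catalyses the same step as Tdo2, was at 0.00, -2.34, 1.38 and 1.53 on BSKO 1 to 4, against -3.64, -3.50, 0.21 and 0.00 on WT 1 to 4, so its genotypes overlapped (limma adjusted p = 0.551). With the replicate term and without BSKO 2, Ido1 differed by 2.24 and passed (limma adjusted p = 0.0384). Qprt, which leads the pathway to NAD, differed by -0.48 on 1418837_at (limma adjusted p = 0.405). The 23 probe sets of other desmosome genes had a median of 0.053 with no call, and 14 of them were higher in BSKO. Evpl was at 0.51 (limma adjusted p = 0.432) and Pkp1 at 0.77 (limma adjusted p = 0.536). Pkp2, a plakophilin that binds desmoplakin, was at -0.42 on 1429183_at (limma adjusted p = 0.555).

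Markers of other cells that express some of these genes, or that border the hippocampus, also differed between these arrays. Where 46.5% of all probe sets were lower in BSKO, the 21 probe sets of 11 meningeal and fibroblast genes all were, with a median of -0.91. Their median by array ran from -0.88 to -0.17 over the BSKO arrays and from 0.16 to 0.72 over the WT arrays, with WT 1 and WT 2 at 0.72 and 0.70. None passed with 8 arrays, and without BSKO 2 Ogn and Aldh1a2 fell (1.38 and 1.39 for Ogn, 1.28 for Aldh1a2, as log2 decreases, limma adjusted p = 0.0372 to 0.0398). The fit without BSKO 2 called 1.14% of all probe sets as lower.

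Striatal projection neuron markers ran the opposite way, with a median difference of 1.62 over 10 probe sets. All 10 were higher in BSKO, where 53.5% of all probe sets were. None of the 10 was called with 8 arrays or without BSKO 2. In the 8-array fit with the replicate term, which called 0.371% of all probe sets, 6 probe sets of 4 genes rose. Among these was Drd2, a dopamine receptor (1.79, limma adjusted p = 0.0224). By array the median of the striatal list was 0.087, 0.13, 1.14 and 1.16 on BSKO 1 to 4, against -1.87, -1.74, 0.01 and -0.09 on WT 1 to 4. Thus WT 1 and WT 2, the arrays with the highest dentate marker values in WT, had the lowest striatal values. The dentate marker median was -0.14, 0.00, -0.31 and -0.32 on BSKO 1 to 4, against 0.69, 0.75, 0.02 and 0.01 on WT 1 to 4.

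Prox1 is also used by lymphatic endothelium and by interneurons of caudal ganglionic origin. Lymphatic and blood endothelial genes were lower for 11 of 12 probe sets, beside 46.5% of all. Their median was -0.21, and none was called with or without BSKO 2. Lyve1, a lymphatic and macrophage receptor, differed by -1.47 on 1429379_at (SE 0.33, limma adjusted p = 0.182). On 1453128_at it differed by -0.42 (SE 0.31, limma adjusted p = 0.598), with BSKO 2 above every WT array. The 8 caudal interneuron probe sets had a median of -0.24, and the serotonin receptor gene Htr3a fell without BSKO 2 (by 0.84, limma adjusted p = 0.0166). That fit called 1.14% of all probe sets as lower. Choroid plexus and ependymal genes had a median of -0.21 over 9 probe sets, with BSKO 4 alone at -1.31 and the other arrays between -0.21 and 0.30. The array medians ran from -0.56 to -0.01 in BSKO and from -0.01 to 0.14 in WT for the endothelial list. For the interneuron list they ran from -0.38 to -0.12 in BSKO and from 0.03 to 0.19 in WT. The part of any of these lists in the marker values was not tested.

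**Figure D4:**
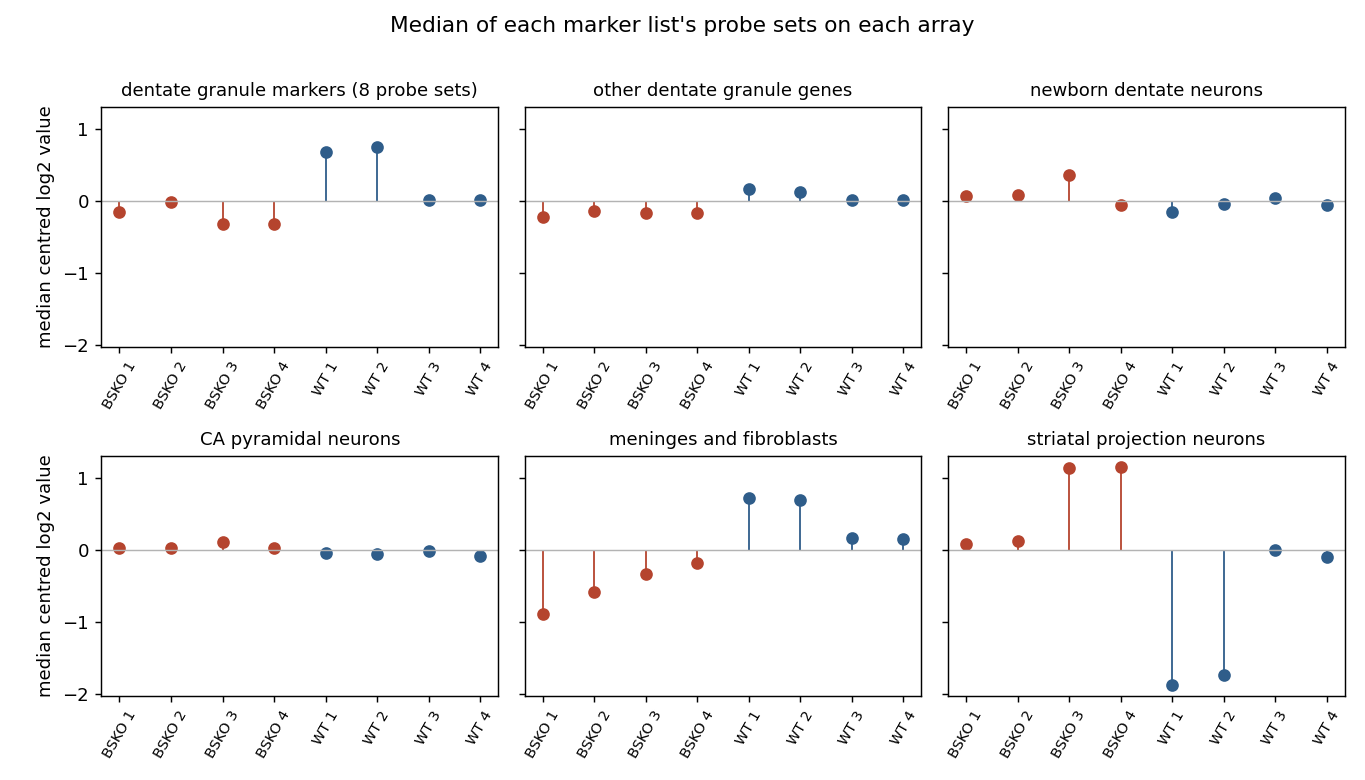
Median centred log2 value (vertical axis) over the probe sets of 6 marker lists on each of the 8 arrays (BSKO in red, WT in blue). On WT 1 and WT 2 the dentate granule markers are at 0.69 and 0.75 and the meningeal list at 0.72 and 0.70, while the striatal list is at -1.87 and -1.74.

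The genes whose pattern was most like the markers were sought by the mean absolute difference, over the 8 arrays, from the mean profile of the 5 marker genes. This profile was -0.12, -0.32, -0.34 and -0.51 on BSKO 1 to 4, against 0.92, 0.87, 0.06 and 0.03 on WT 1 to 4. The nearest of the other genes were Plin4 (distance 0.0982), Twist1 (0.122), Npr3 (0.133), Neurod6 (0.145) and Cidea (0.149), where the median distance over all named probe sets was 0.467. Trpc6 was itself the closest marker (0.154) and Dsp 1435493_at the farthest (0.794). Without BSKO 2 the nearest genes were Plin4, Col5a2, Nkd2, P2rx5 and Npr3, which share 2 names with the list from 8 arrays. None of the 5 nearest genes was called with 8 arrays (limma adjusted p = 0.193 to 0.423).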

How the data were processed

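Brain RNA of 8 mice was measured on 8 single-channel arrays. RMA is the tool that the submitters' processing notes name; its version and any genome build are not given in the sources used here. Deposited by the authors, the log2 values cover 22690 probe sets. In all but 1 of them the median of the 8 values lay within 1e-05 of 0, which shows a centring that no label records. The log base was taken from RMA and is not stated. Array medians over the table were 0.00538, 0.0403, -0.0105 and 0.000772 on BSKO 1 to 4, against -0.00167, 0.00469, 0.00311 and -0.0146 on WT 1 to 4.

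Leaving out 64 control probe sets, 22626 were tested using R 4.3.3 and limma 3.58.1 (two-sided moderated test, no covariate, no filter), with Benjamini-Hochberg adjustment over all of them. Symbols came from the platform annotation (20380 probe sets with 1 symbol, 691 with several, 1555 with none), and 20351 gene numbers matched the RefSeq annotation of GRCm38.p6 with 0 symbols changed. Figures were drawn with matplotlib 3.10.9. The fits were tested on simulated data. The correlation of deviations between arrays with the same replicate number was 0.0858, 0.0562, 0.14 and 0.129, so the numbers were not taken to pair the animals. By the same measure BSKO 1 and BSKO 2 both matched WT 1 best, and BSKO 3 and BSKO 4 both matched WT 3 best. The markers, the 12 other lists and the tests were chosen with earlier results of these data known. Text names all markers, up to 4 genes of a list with the smallest p, genes called with or without BSKO 2, and the 5 nearest genes. Calb1 and the other granule genes with a probe set higher in BSKO are named besides. Of lists moving with the markers, fewer are named. Alternatives were other normalizations, probe set filters, moderation, array weights, a replicate block, a replicate term, a looser threshold, 1 value per gene and leaving out each array.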

Additional observations from a re-analysis of the deposited data

Results flagged for a closer look

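Among 16 groups of 4 arrays examined for a value far from the rest (8 marker probe sets in BSKO and in WT), 2 held one, both on BSKO 2. Chance gives about 1 in 20. Dsp 1427610_at was 1.02 on BSKO 2, where the gap to the nearest BSKO array took 0.843 of the range of the group. Tdo2 1419093_at was 0.582 on BSKO 2, with a gap ratio of 0.971. On this array the centred value of the 5' probe set for Gapdh minus that of the 3' one was -2.43, against -0.0749 to 0.0949 on the other 7. The part of RNA quality in these values was not tested.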

How the results depend on the processing

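Over 138 results of single marker probe sets under the alternatives, 126 kept their direction and their side of the threshold, 8 newly passed it and 4 reversed. Some of these could not reverse. The looser threshold, the moderation setting, the probe set filter, the replicate block and the replicate term with 8 arrays leave the difference itself unchanged. The reversed values were those of Dsp 1427610_at, at -0.0922 after quantile normalization, -0.102 with array weights, -0.164 without BSKO 2 (-0.164 to 0.266 on leaving out each array) and -0.158 without BSKO 2 with the replicate term. Lct passed after quantile normalization (-1.23, limma adjusted p = 0.0354), and Lct, Trpc6, Dsp 1435494_s_at and Tdo2 1419093_at passed once arrays were weighted (0.0456 for BSKO 2, 3.69 for BSKO 4). Of the 8 marker probe sets, 0 were called with 8 arrays, beside 7 of all 22626. After quantile normalization 1 was called, beside 678 of all 22626, and with array weights 4, beside 2617. Without BSKO 2 with the replicate term 2 were called, beside 744 of all 22626. On leaving out each array 0 to 1 were called, beside 0 to 369. The median difference of the 8 marker probe sets kept its sign in all fits. It was -0.69 with 8 arrays and ran from -0.91 without WT 3 to -0.53 without WT 2.

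Over all probe sets 7 were called with 8 arrays. The count was 678 after quantile normalization, 108 with trend and robust settings, 2617 with array weights, 0 in the fit that blocked on replicate number, 84 with the replicate term, 744 with that term without BSKO 2 and 66 at a threshold of 0.10. It was 0 to 369 on leaving out each array. The interaction called 4 probe sets, 29 after quantile normalization and 0 to 10680 on leaving out each array, the highest without BSKO 1. The replicate block called none of the 8 markers. The cause of these shifts was not tested. Filtering out dim probe sets could not be done on values that were centred. The values give no signal over background, so a low signal cannot be told apart from a small change.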
